A study of Sus scrofa with 13 samples.

Results

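The MEF2, GATA, HAND, NKX2-5, TBX5 and SRF genes encode transcription factors that build and maintain heart muscle. On arrays of infarcted pig hearts, 10 of them were looked for: MEF2A, MEF2C, MEF2D, GATA4, GATA6, HAND1, HAND2, NKX2-5, TBX5 and SRF. Their probe sets, the groups of short probes that measure 1 transcript, were found by gene symbol in the annotation of the array. A symbol was present for 5 of the 10 genes, on 7 of 23999 probe sets that are not controls: 2 for MEF2A, 1 for MEF2D, 2 for GATA4, 1 for GATA6 and 1 for HAND1. MEF2C, HAND2, NKX2-5, TBX5 and SRF are not analysed here. The genes were chosen by earlier values of these same arrays, in which MEF2A and GATA6 were high after stem cells, so the differences between the groups are given for all 5 genes as a description and without a test.

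The arrays came from drill biopsies of the heart of 13 female Sinclair miniswine. All of them had been infarcted at an age of 3 months and a weight of about 10 kg, by permanent ligation of diagonal branches of the LAD, the coronary artery of the front wall. In the stem cell group, 7 animals then received 50000000 cells in 2 ml saline, 10000000 at each of 5 sites in the border zone of the infarct. In the saline group, 6 animals received 2 ml saline at similar sites. Biopsies were taken at month 4, and each animal gave 1 array, and precision is limited by how many arrays there are. The labels call the cells stem cells and, in one protocol, MPCs, and the sources used here do not give their donor, their species or the place of each biopsy relative to the infarct. Both groups describe infarcted hearts, and uninfarcted hearts are not analysed here.

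MEF2 proteins bind A/T-rich elements of muscle genes, and class II histone deacetylases hold them inactive until calcium-dependent kinases drive these repressors out of the nucleus. GATA4 and GATA6 are zinc finger proteins that bind GATA motifs, act together with MEF2 and NKX2-5 proteins at cardiac promoters, and partly stand in for each other in the developing heart. HAND1 is a basic helix-loop-helix factor of the developing left ventricle, and SRF drives contractile and immediate early genes through CArG boxes together with cofactors of the myocardin family.

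Values below are log2 intensities, and a difference of 1 is a doubling. Intensities of different probe sets are not comparable as amounts of RNA, so only animals are compared, one probe set at a time. Probe sets were tested when their mean over all arrays lay above 3.36, and 6 of the 7 probe sets of the 5 genes did. Over all 14399 probe sets tested with limma, 0 passed an adjusted p of 0.05 (0%, smallest adjusted p of 0.393), and 1519 had an unadjusted p under 0.05 (10.5%), 777 of them higher after stem cells (5.4%). Of the 6 probe sets, 0 passed the adjusted threshold, and 2 were among those under the unadjusted one, those of MEF2A and GATA6 for which the genes were chosen. All 14 named cardiomyocyte markers lay above the filter level. So did 5196 of all 6765 named genes, so passing the filter does not by itself mark heart muscle. The mean of the 14 markers was 13.03 ± 0.16 in the 7 stem cell animals and 12.92 ± 0.12 in the 6 saline animals (SD). In biopsies of whole tissue, fewer cells of a type and less RNA per cell cannot be told apart.

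**Figure D1:**
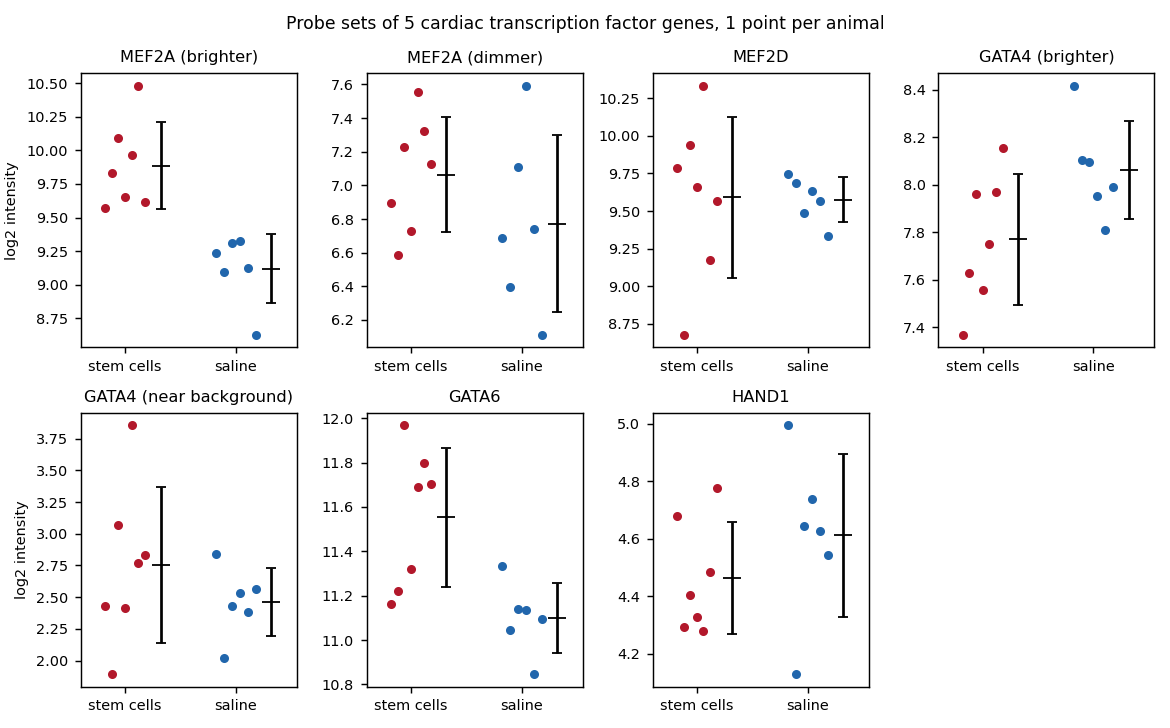
Log2 intensity (vertical axes, a different range in each panel) of the 7 probe sets of MEF2A, MEF2D, GATA4, GATA6 and HAND1 in each animal, with 7 stem cell animals in red and 6 saline animals in blue. Black bars show the mean and SD of each group. The groups are apart in the brighter MEF2A panel and overlap in the other 6 panels.

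MEF2A, the main MEF2 protein of adult heart muscle in mice, was measured by a bright and a dim probe set, and the pair gave different pictures. The brighter one (listed for transcript BM190416) had a lowest value of 9.57, a median of 9.83 and a highest of 10.48 after stem cells, against 8.63, 9.18 and 9.32 after saline. All 7 stem cell animals lay above all 6 saline animals, with 0.25 between the lowest stem cell and the highest saline animal. Over all probe sets tested, 17 showed this separation (0.118%). The stem cell mean was 9.89 ± 0.32 (SD, n = 7) and the saline mean 9.12 ± 0.26 (SD, n = 6), a log2 difference of 0.77 ± 0.17 (SE), or 1.7-fold.

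The dimmer MEF2A probe set (listed for BX917896) had a lowest value of 6.59, a median of 7.13 and a highest of 7.55 after stem cells, against 6.11, 6.71 and 7.59 after saline. Here the groups overlapped: 0 of 7 stem cell animals lay above the highest saline animal, replicate 4, and 5 of 7 lay above the saline mean. The stem cell mean was 7.06 ± 0.34 (SD, n = 7) and the saline mean 6.77 ± 0.52 (SD, n = 6), a log2 difference of 0.29 ± 0.24 (SE) with a 95% interval of -0.21 to 0.79. This value was 0.159 without saline replicate 6 and 0.455 without saline replicate 4.

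Within each group the MEF2A probe sets moved together across animals, with r = 0.55 over the 7 stem cell animals and r = 0.82 over the 6 saline animals. The brighter exceeded the dimmer by 2.82 ± 0.32 in the 7 stem cell animals and by 2.35 ± 0.35 in the 6 saline animals (SD). This gap ran from 2.41 to 3.25 after stem cells and from 1.73 to 2.70 after saline, so that the groups overlapped. The deviation of the gap from its group mean went with the RNA integrity measure, the log2 excess of 3' over 5' control probe sets, at r = 0.55 (permutation p of 0.0531) and rho = 0.53 (permutation p of 0.0807), a relation looked at after the values were seen. By itself the brighter probe set had r = 0.012 with that measure, and the dimmer one r = -0.41. Where in the MEF2A transcript each probe set lies was not used here, and the part of RNA integrity in the difference between them was not tested beyond these values.

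**Figure D2:**
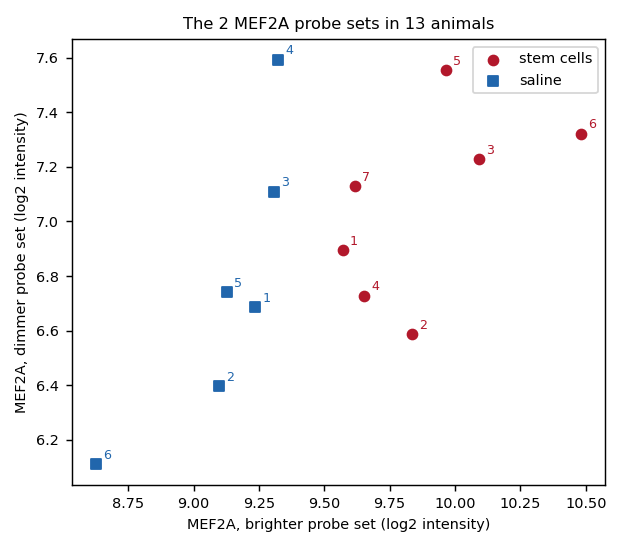
The brighter (horizontal axis) and the dimmer MEF2A probe set (vertical axis) in 13 animals, in log2 intensity, with stem cell animals as red circles, saline animals as blue squares and the replicate number beside each point. The stem cell animals lie to the right of all saline animals at 9.57 and above, and along the vertical axis the groups overlap between 6.59 and 7.55.

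MEF2D, another MEF2 gene active in heart muscle, had mean levels close to each other in both groups and a larger SD after stem cells. Its probe set (listed for BI398671) had a lowest value of 8.68, a median of 9.66 and a highest of 10.33 after stem cells, against 9.33, 9.60 and 9.75 after saline. The saline animals lay inside the range of the stem cell animals, of which 3 were above and 2 below all of them. MEF2D averaged 9.59 ± 0.54 after stem cells (SD, n = 7) and 9.58 ± 0.15 after saline (SD, n = 6), and the log2 difference was 0.01 ± 0.22 (SE) with a 95% interval of -0.45 to 0.47. Stem cells replicate 2 was the lowest animal and stem cells replicate 5 the highest. The same arrays were at the ends of the RNA integrity measure, with a 3' excess of 2.39 and 0.781 against 1.10 to 1.64 in the other stem cell animals and 1.13 to 2.04 in saline animals. Without both, the MEF2D difference was 0.0489, and it was -0.109 without stem cells replicate 5 alone and 0.167 without stem cells replicate 2 alone.

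GATA6 lay higher after stem cells. Its probe set (listed for NM_214328) had a lowest value of 11.16, a median of 11.69 and a highest of 11.97 after stem cells, against 10.85, 11.12 and 11.33 after saline. All 7 stem cell animals lay above the saline mean, but 3 of them, replicates 1, 2 and 4, lay below the highest saline animal, replicate 1. The stem cell mean was 11.55 ± 0.31 (SD, n = 7) and the saline mean 11.10 ± 0.16 (SD, n = 6), a log2 difference of 0.45 ± 0.14 (SE), or 1.37-fold. Deviations of GATA6 from the group means had r = -0.54 with the RNA integrity measure (permutation p of 0.0992, adjusted to 0.405). This r was -0.70 over stem cell animals and 0.052 over saline animals. With that measure in the fit the GATA6 difference was 0.415, and the part of RNA integrity in it was not tested further.

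GATA4 lay the other way. Its brighter probe set (listed for NM_214293) had a lowest value of 7.37, a median of 7.75 and a highest of 8.15 after stem cells, against 7.81, 8.04 and 8.42 after saline. Of the stem cell animals, 4 lay below the lowest saline animal and 6 below the saline mean. The stem cell mean was 7.77 ± 0.28 (SD, n = 7) and the saline mean 8.06 ± 0.21 (SD, n = 6), a log2 difference of -0.29 ± 0.16 (SE) with a 95% interval of -0.63 to 0.05, which takes in 0. The other GATA4 probe set, listed for the same transcript, was near background: 1 of 13 arrays lay above the filter level, and 5 lay above 2.58, the highest mean among control probe sets with no pig target. It ranged from 1.89 to 3.86 after stem cells and from 2.02 to 2.84 after saline, with a log2 difference of 0.29 ± 0.23 (SE, fit with no filter). The highest value, in stem cells replicate 5, belonged to the array with the smallest 3' excess, and the deviations of this dim probe set had r = -0.87 with the RNA integrity measure over 13 animals. With a pseudocount of 16 its difference was 0.101, and at this intensity neither a level nor a direction of GATA4 is read from it.

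HAND1 was dim but above the filter level in 13 of 13 arrays. Its probe set (listed for NM_001014428) had a lowest value of 4.28, a median of 4.41 and a highest of 4.78 after stem cells, against 4.13, 4.64 and 5.00 after saline. The saline animals held both the lowest value, replicate 2, and the highest, replicate 1. HAND1 averaged 4.46 ± 0.20 after stem cells (SD, n = 7) and 4.61 ± 0.28 after saline (SD, n = 6), with a log2 difference of -0.15 ± 0.14 (SE) and a 95% interval of -0.46 to 0.16. Without saline replicate 1 this value was -0.0725, and without saline replicate 2 it was -0.246.

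How the 5 genes varied between animals of the same group did not enter the choice of the genes, and it was tested. Each animal's value was taken as its deviation from its group mean, and 10 pairs of genes were compared over 13 animals with a two-sided permutation test within groups. GATA4 and GATA6 varied together: r was 0.84 (permutation p of 0.00174, adjusted over the 10 pairs to 0.0174) and rho was 0.86 (permutation p of 0.0013, adjusted to 0.013). The relation held in each group, with r = 0.85 over the 7 stem cell animals and r = 0.88 over the 6 saline animals. Without stem cells replicate 1 and saline replicate 1, the animals farthest from the GATA4 median, r was 0.76, and with any single animal left out it lay between 0.79 and 0.88.

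The other 9 pairs did not pass after adjustment. MEF2A, by its brighter probe set, and GATA6 came next at r = 0.53 (permutation p of 0.0926, adjusted to 0.463) and rho = 0.65 (permutation p of 0.0316, adjusted to 0.158), and r was 0.65 without the 2 animals farthest from the MEF2A median. Their r was 0.65 over stem cell animals and 0.21 over saline animals. MEF2A and MEF2D had r = -0.0067, MEF2A and GATA4 r = 0.37, and HAND1 had r between -0.0034 and 0.29 with the other genes. Values of 1 array share its normalization and its tissue piece, which such correlations include.

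**Figure D3:**
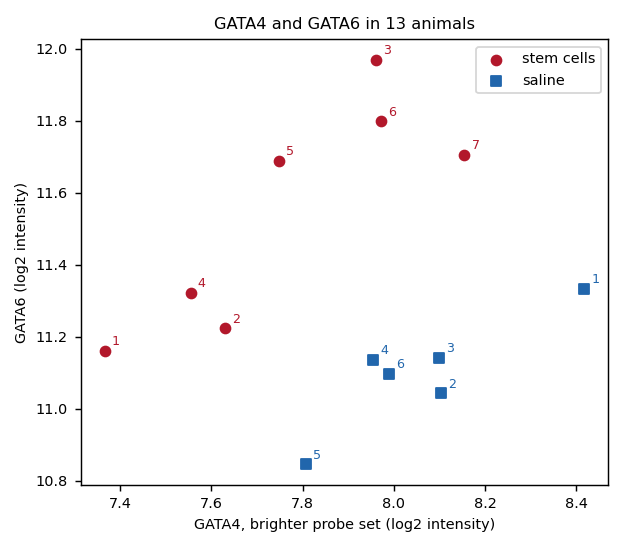
GATA4 (horizontal axis, brighter probe set) against GATA6 (vertical axis) in 13 animals, in log2 intensity, with stem cell animals as red circles, saline animals as blue squares and the replicate number beside each point. Within each group GATA6 climbs with GATA4, and the stem cell animals form a separate band above and to the left of the saline animals.

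Because GATA4 and GATA6 ran in parallel within groups while their group differences had opposite signs, the difference between them in each animal set the groups apart more cleanly than either gene. This quantity was picked after the values were seen and carries no test. GATA6 exceeded GATA4 by 3.55 to 4.01 in the stem cell animals and by 2.92 to 3.18 in the saline animals, with 0.37 between the nearest animals of the groups. This excess averaged 3.78 ± 0.17 after stem cells (SD, n = 7) and 3.04 ± 0.10 after saline (SD, n = 6), a difference of 0.745 that lay between 0.708 and 0.784 with any single animal left out. Its deviations from the group means had r = -0.56 with the RNA integrity measure over 13 animals, whose part in the difference was not tested. As background, all stem cell animals lay above all saline animals for 430 of 14398 probe sets set against GATA6 in the same way (2.99%), and nothing is read from this share, since GATA6 was chosen for its group values and GATA4 was paired with it after its own were seen. The excess of one probe set over another is not a ratio of RNA amounts.

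The genes were next set against summed markers of the cell types that a heart biopsy holds, again as deviations within groups, in 40 relations of 5 genes with 7 marker lists and the RNA integrity measure. None passed after adjustment (0 of 40, smallest adjusted p of 0.215), and 5 had an unadjusted permutation p under 0.05. HAND1 ran against the fibroblast and matrix markers at r = -0.77 (permutation p of 0.00537, adjusted to 0.215) and rho = -0.75 (permutation p of 0.00716, adjusted to 0.286). Its r was -0.73 over stem cell animals, -0.83 over saline animals and -0.62 without the 2 animals farthest from the median of the markers. GATA6 ran with the cardiomyocyte markers at r = 0.66 (permutation p of 0.0377, adjusted to 0.394) and rho = 0.71 (permutation p of 0.0221, adjusted to 0.314). For GATA6 the groups differed in this, with r = 0.91 over stem cell animals and r = -0.14 over saline animals, a difference that was not tested. The split was not particular to GATA6: GATA4 had r = 0.81 over stem cell animals, r = -0.24 over saline animals and r = 0.48 over all 13.

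MEF2D had the other 3 relations under 0.05. Its r was 0.71 with endothelial markers (permutation p of 0.0117, adjusted to 0.235; rho = 0.68, permutation p of 0.0235, adjusted to 0.314) and 0.65 with smooth muscle and pericyte markers (permutation p of 0.0399, adjusted to 0.394; rho = 0.57, permutation p of 0.0643, adjusted to 0.444). With the RNA integrity measure it was -0.66 (permutation p of 0.0493, adjusted to 0.394; rho = -0.33, permutation p of 0.31, adjusted to 0.527). Without the 2 animals farthest from the median of each measure, these became 0.20, -0.00076 and 0.13, so all 3 rested on those animals, stem cells replicates 2 and 6 for the markers and 2 and 5 for RNA integrity.

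**Figure D4:**
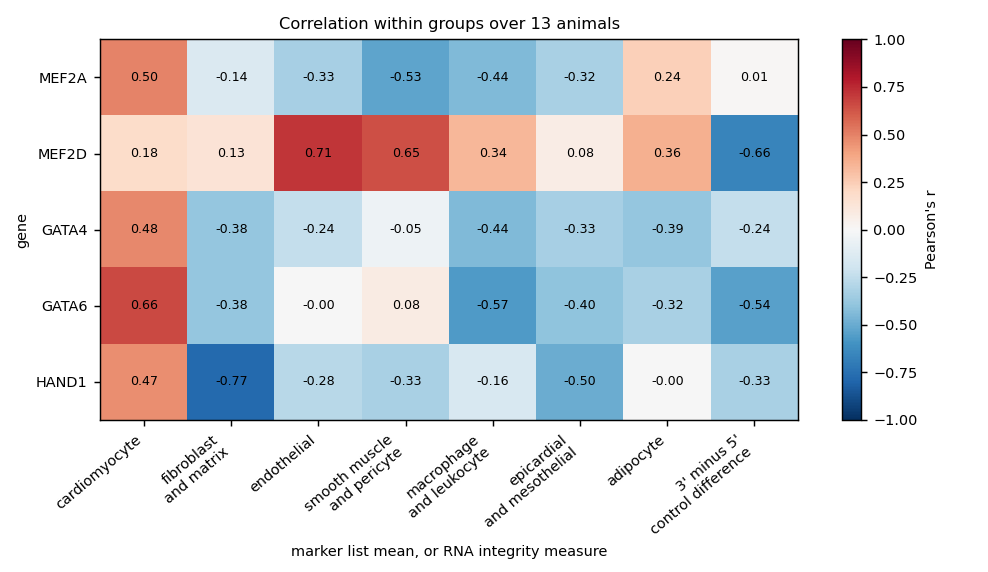
Pearson's r over 13 animals between deviations from the group means of 5 genes (rows) and of the mean of 7 marker lists and the log2 excess of 3' over 5' control probe sets (columns). Colour runs from -1 (blue) to 1 (red). The largest sizes are -0.77 for HAND1 with fibroblast and matrix markers and 0.71 for MEF2D with endothelial markers, and 0 of the 40 values passed after adjustment.

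Between the groups, the marker lists moved as follows, all medians being log2 differences and the median over all probe sets tested being 0.017. Of all probe sets tested, 7606 were positive and 6793 negative (52.8% positive). Of 14 cardiomyocyte markers 11 were positive (median 0.081, and 0.051 without stem cells replicate 3), and those of smallest p were the calcium pump inhibitor PLN at 0.21 ± 0.12, or 0.13 without saline replicate 2, and cardiac actin ACTC1 at 0.12 ± 0.070 (SE). Of 13 macrophage and leukocyte markers 11 were negative (median -0.30, and -0.15 without stem cells replicate 6), with the adaptor TYROBP at -0.76 ± 0.30 and the integrin ITGB2 at -0.44 ± 0.19 (SE), and ITGAM, CD3E, CD3D, CD4 and CD79B were below the filter level. The mean of the 13 leukocyte markers ran from 5.73 to 6.65 after stem cells and from 6.16 to 6.83 after saline. The ITGB2 probe set was dim, with a mean of 3.7 after stem cells and 4.1 after saline. Of 9 smooth muscle and pericyte markers 6 were negative (median -0.20, and 0.026 with array weights), with MYL9 at -0.88 ± 0.21 and CNN1 at -1.54 ± 0.69 (SE), and of 11 endothelial markers 8 were negative (median -0.15, and 0.026 with array weights), with TEK at 0.38 ± 0.17 and ENG at -0.65 ± 0.29 (SE).

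The 14 fibroblast and matrix markers were split evenly (median -0.057, and 0.187 without saline replicate 2), with COL3A1 at 0.35 ± 0.12 and S100A4 at -0.43 ± 0.19 (SE). The probe sets of COL3A1 and S100A4 were dim, with means of 3.8 and 3.9 after stem cells and 3.5 and 4.4 after saline. The lowest COL3A1 value, 3.12 after saline, lay below the filter level. The 3 measured epicardial and mesothelial markers were negative (median -0.21, and 0.044 without saline replicate 2), with TCF21 at -0.45 ± 0.31 and KRT8 at -0.21 ± 0.48 (SE), and of the 3 measured adipocyte markers LPL was at 0.13 ± 0.12 and FABP4 at -0.23 ± 0.36 (SE), while ADIPOQ, LEP and LIPE were below the filter level. LPL was at 0.061 without saline replicate 2, and FABP4 at -0.083 without stem cells replicate 3. No marker in these lists passed an adjusted p of 0.05 in limma (0 in each list), and 2 fibroblast, 2 endothelial, 2 smooth muscle and 3 leukocyte markers had an unadjusted p under 0.05, beside 10.5% of all probe sets tested. With the cardiomyocyte minus fibroblast marker mean in the fit, the MEF2A difference was 0.75 and the GATA6 difference 0.42, and the part of tissue makeup in them was not tested further.

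The genes around the 5 factors were read from lists of known partners and targets, with 1 probe set per gene. A gene can stand in several lists. The counts of signs below stand beside the 52.8% of all probe sets tested that were positive. Of 12 other cardiac transcription factors tested, 4 were positive and 8 negative, with a median of -0.056. This median was -0.21 with the filter at the 60th percentile, and it was -0.0061 without saline replicate 2. TEAD4, a factor of Hippo signalling, was at -0.77 ± 0.28, and 0 of 7 stem cell animals lay above its saline mean. TCF21, a factor of cardiac fibroblasts and the epicardium, was at -0.45 ± 0.31, the Hippo factor TEAD1 at 0.16 ± 0.12 and GATA2, a factor of blood and endothelium, at -0.35 ± 0.26 (SE). TCF21 was at -0.23 without stem cells replicate 6, TEAD1 at 0.092 without stem cells replicate 3 and GATA2 at -0.53 without stem cells replicate 4. The probe sets of TEAD1 and GATA2 were dim, with means of 3.7 and 4.2 after stem cells and 3.5 and 4.5 after saline. The adjusted p of these 4 genes lay between 0.42 and 0.632 (limma), and 1 of the 12 had an unadjusted p under 0.05, beside 10.5% of all probe sets tested.

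Regulators and cofactors of MEF2 and GATA proteins were 7 positive and 10 negative of 17, with a median of -0.049, which was -0.099 without stem cells replicate 6 and became -0.0040 when stem cells replicate 1 was left out. CAMK2D, the main cardiac isoform of a calcium-dependent kinase that phosphorylates histone deacetylases, was at 0.36 ± 0.13, above its saline mean in 7 of 7 stem cell animals. HDAC5, a class II histone deacetylase that represses MEF2 proteins, was at -0.65 ± 0.28, with 0 of 7 above it. RCAN1, an inhibitor of calcineurin, was at -0.78 ± 0.40 (-0.48 without stem cells replicate 6) and the kinase subunit CAMK2B at -0.33 ± 0.18 (SE), and the adjusted p of the 4 lay between 0.42 and 0.536 (limma). CAMK2D and HDAC5 were the 2 of 17 with an unadjusted p under 0.05, a share near the 10.5% of all probe sets tested.

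Target genes had differences of both signs. Of 23 MEF2 targets 11 were positive and 12 negative (median -0.018, and 0.040 without saline replicate 5), with HRC, which binds calcium inside the sarcoplasmic reticulum, at -1.23 ± 0.22, the M-band protein MYOM1 at 0.29 ± 0.12, ACTC1 at 0.12 ± 0.070 and the small heat shock protein HSPB7 at -0.37 ± 0.24 (SE). Of 16 GATA targets 10 were positive and 6 negative (median 0.059, and 0.023 with the replicate number as a block), among them the cyclin CCND2 at -0.85 ± 0.32, the sodium-calcium exchanger SLC8A1 at 1.16 ± 0.52, and the natriuretic peptides NPPA at -0.77 ± 0.38 and NPPB at -1.50 ± 0.76 (SE). NPPA was at -0.45 without saline replicate 6 and NPPB at -0.90 without stem cells replicate 6. SLC8A1 ran widely between animals after stem cells, with an SD of 1.31 (n = 7) against 0.72 (n = 6) after saline.

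Of 22 SRF targets, 11 were positive and 11 negative (median 0.0071, and -0.070 without stem cells replicate 4), with the smooth muscle myosin light chain MYL9 at -0.88 ± 0.21, cytoskeletal actin ACTB at 0.45 ± 0.19, or 0.30 without saline replicate 1, calponin CNN1 at -1.54 ± 0.69 and ACTC1 at 0.12 ± 0.070 (SE). Of 13 targets of NKX2-5, TBX5 and HAND factors 6 were positive and 7 negative (median -0.0093, and 0.11 with array weights), and the 4 with the smallest p were MYOM1, SLC8A1, NPPA and NPPB, already given. In these 4 target lists 0 genes passed an adjusted p of 0.05, and the smallest adjusted p was 0.393 (limma). At an unadjusted p under 0.05 there were 2 of 23 MEF2 targets, 2 of 16 GATA targets, 3 of 22 SRF targets and 2 of 13 NKX2-5, TBX5 and HAND targets, beside the 10.5% of all probe sets tested.

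**Figure D5:**
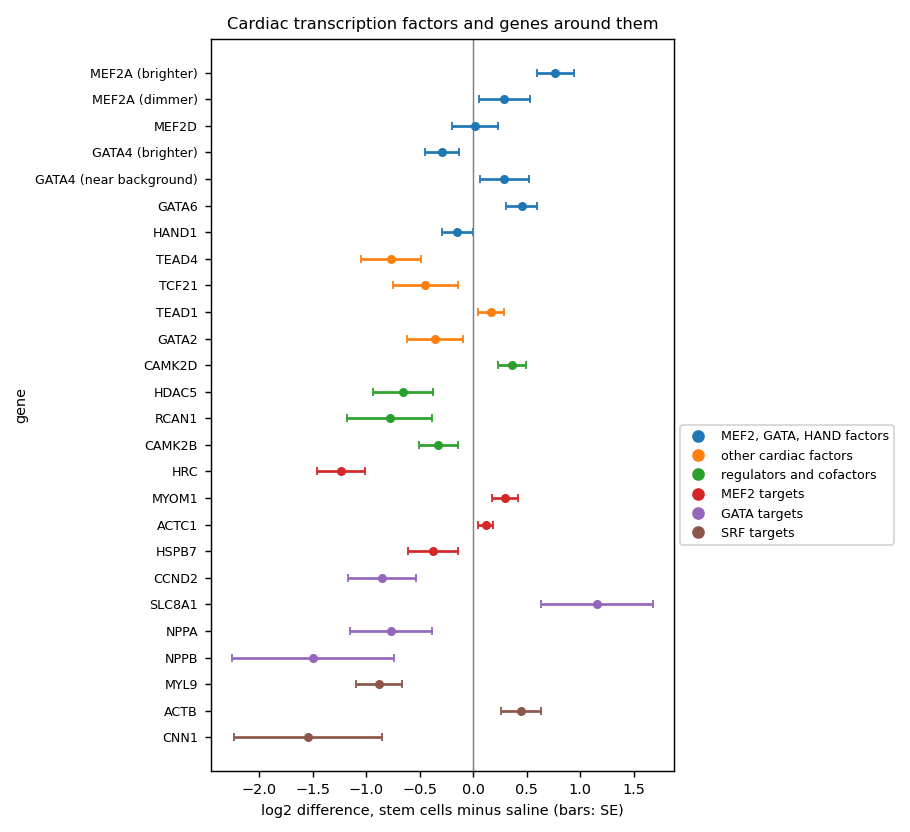
Log2 difference, stem cells minus saline (horizontal axis, bars show the SE), for the 7 probe sets of MEF2A, MEF2D, GATA4, GATA6 and HAND1 and for the genes named from the lists of other cardiac factors, regulators and targets, each drawn once under its first list. Positive values are higher after stem cells. The widest bars belong to NPPB at -1.50 and CNN1 at -1.54.

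Genes whose pattern between animals was most like that of MEF2A, by its brighter probe set, were found by correlation over 13 animals. Deviations from the group means were used, which leaves the group difference out. Among 6882 other named probe sets, those of TAX1BP1, an autophagy receptor, KIAA0232, DARS, the aspartate tRNA synthetase, CAST, the calpain inhibitor calpastatin, and PRKACB, a catalytic subunit of protein kinase A, had the highest r, from 0.88 to 0.92. The lowest belonged to LOC100517502, COPRS and CYSTM1, from -0.93 to -0.89. For scale, 1% of the named probe sets had an r above 0.79 with this MEF2A probe set. The dimmer MEF2A probe set had r = 0.65 with it, below that value, so the likeness is to 1 probe set.

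The patterns most like that of GATA6 were those of CPNE1, CASQ2, EIF4EBP2, TIMM44 and DIEXF, with r from 0.88 to 0.91. CASQ2 encodes cardiac calsequestrin, which stores calcium in the sarcoplasmic reticulum, CPNE1 a calcium-dependent membrane-binding protein, EIF4EBP2 an inhibitor of translation initiation, and TIMM44 a part of the mitochondrial import motor. The probe sets of CPNE1, TIMM44 and DIEXF were dim, with means between 3.43 and 4.07, and that of CASQ2 was dim as well, with a mean of 4.91. The lowest r, -0.90 for each, belonged to LOC100512195, SRGN and CD53, and SRGN and CD53 are genes of leukocytes. For GATA6, 1% of the named probe sets had an r above 0.77, and GATA4 at 0.84 lay above that value.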

How the data were processed

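The values are intensities of a porcine Affymetrix expression array, deposited by the authors as 1 column per animal on a linear scale. They were made with GCRMA, per the submitters' processing notes; the sources used here give neither version nor settings. Log2 of the intensities was taken with no pseudocount. Of 24123 probe sets, 124 controls were left out. Gene symbols came from the platform annotation: 10069 probe sets had 1 symbol, 198 several and 13732 none, and those with several or none were not named.

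Probe sets with a mean above the 40th percentile (log2 3.36) were fitted with limma 3.58.1 in R 4.3.3 (lmFit, eBayes with trend) over all 13 arrays, with Benjamini-Hochberg adjustment over 14399 probe sets. The script was tested on simulated data. A gene of a list, or of a correlation, is represented by its probe set of highest mean. Correlations of deviations from group means used scipy 1.17.1 and 100000 two-sided permutations within groups. RNA integrity is the mean log2 excess of 3' over 5' control probe sets of actin, GAPDH and EF1A. Its mean was 1.41 ± 0.52 in the 7 stem cell animals and 1.53 ± 0.32 in the 6 saline animals (SD). Median intensity, on the linear scale before log2, was 13.5 to 14 on every array, and the sources give no batch.

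The genes and lists were chosen with earlier results of these data known. Named were all probe sets of the factors, the 4 genes of smallest p in each factor, regulator and target list, the 2 of smallest p in each marker list, and for MEF2A and GATA6 the 5 genes of highest and 3 of lowest r. The replicate numbers were taken as names of the animals, since the labels state no pairing. Same-numbered animals had correlations of deviations from -0.27 to 0.24, which cannot show whether such animals were handled together.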

Additional observations from a re-analysis of the deposited data

Results flagged for a closer look

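In the saline group, the brighter MEF2A probe set was far lower in replicate 6, at a log2 intensity of 8.626, than in the other 5 saline animals, which lay between 9.10 and 9.32. Its gap to the nearest of them took 0.675 of the range of the group, above the Dixon limit for 6 samples. The dimmer MEF2A probe set was lowest in the same animal, at 6.11. Without it, the log2 difference of the brighter probe set, stem cells minus saline, was 0.669. The 7 probe sets were looked at in both groups, 14 times in all, and chance alone marks about 1 group in 20 in this way.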

How the results depend on the processing

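Over all kinds of result, 1279 alternatives were run. Of the 24 that concern the number of probe sets past the adjusted threshold, 1 changed it. The sign turned in 6 of 158 alternatives for the factors' differences, all for MEF2D, in 2 of 691 for the other named genes, both for KRT8, in 37 of 312 for the list medians (8 of 13 lists) and in 6 of 54 for correlations. The number of probe sets past an adjusted p of 0.05 lay between 0 and 1 with each animal left out, and the 1, without saline replicate 5, was HIGD1B (limma, adjusted p of 0.0222). At an unadjusted p under 0.05 there were 1026 without stem cells replicate 6, 1788 without stem cells replicate 1, 2103 with no filter and 1370 with the replicate number as a block. With that replicate block the log2 difference of MEF2A (brighter) was 0.813, of GATA4 -0.357 and of HAND1 -0.201, and the block changed no call. These differences equal those without stem cells replicate 7, which has no saline animal of the same number, so the block is not a separate check of them. Leaving out each animal gave 0.669 to 0.821 for the brighter MEF2A probe set, 0.384 to 0.518 for GATA6, -0.357 to -0.221 for GATA4 and -0.109 to 0.167 for MEF2D, whose value was also -0.059 with the RNA integrity covariate. The dim GATA4 probe set had 0.101 with a pseudocount of 16. KRT8 ranged from -0.55 to 0.11, with 0.113 without saline replicate 2, and it was 0.02 when saline replicate 4 was left out. Among correlations, MEF2A with MEF2D (-0.0067) became 0.051 after a second quantile normalization and 0.21 without the 2 farthest animals, and without such animals MEF2D had -0.091 with GATA4 in place of 0.063, -0.046 with GATA6 in place of 0.34, -0.00076 with smooth muscle markers in place of 0.65, and 0.13 with RNA integrity in place of -0.66. The cause of these turns was not tested. With array weights HSPB7 was at -0.20, CNN1 at -0.92 and ENG at -0.43. The number of arrays limits the precision, and 1 GATA4 probe set was too dim to read.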

Other observations

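Beside GATA6 at r = -0.90, the leukocyte genes SRGN and CD53 had log2 differences, stem cells minus saline, of -0.071 ± 0.26 and -0.44 ± 0.41 (SE). The macrophage and leukocyte marker mean had r = -0.57 with GATA6 over 13 animals (permutation p of 0.0804, adjusted to 0.405; rho = -0.58, permutation p of 0.0583, adjusted to 0.444), so the relation did not pass. CASQ2, at r = 0.91 with GATA6, also stands in the cardiomyocyte marker list. Its probe set was dim, with a mean of 4.91, and its log2 difference was 0.12 ± 0.21 (SE).

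Of the genes most like the brighter MEF2A probe set between animals, CAST had a log2 difference of 0.56 ± 0.17 and PRKACB of 0.32 ± 0.19 (SE). Among the most opposite, CYSTM1 had -0.56 ± 0.20 and LOC100517502 -0.87 ± 0.37 (SE). None of these 4 passed an adjusted p of 0.05 in limma, with adjusted p between 0.396 and 0.56.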
